A study of Mus musculus with 2 samples.

Results

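The platelet-derived growth factor (PDGF) genes were followed in single-cell RNA sequencing of small tumours grown under the skin from B16F10 cells, a melanoma line of the mouse. The 6 genes were taken by name from the 31053 genes of the deposited count tables and comprised the 2 receptor genes Pdgfra and Pdgfrb and the 4 ligand genes Pdgfa, Pdgfb, Pdgfc and Pdgfd. All 6 were measured. The tumours had grown in Atf4 WT/WT mice (WT) or in Atf4 Δ/Δ mice (KO), with 1 library for each genotype in which 2 tumours were pooled, from mice given as 11 weeks old, males and females together. Per the study's methods all hosts carried CreERT2, a tamoxifen-activated recombinase, at the Rosa26 locus and all were given tamoxifen, so that floxed Atf4 was deleted throughout the body of the KO hosts, and not in fibroblasts alone. The injected melanoma cells carried their own Atf4 in both libraries. The question put to the data was which cells of the tumour held the ligand transcripts, which held the receptor transcripts, and where the levels differed with the host genotype.

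PDGF ligands are secreted dimers that bind receptor tyrosine kinases on mesenchymal cells and drive their growth and migration. PDGF-A and PDGF-C act mainly through the receptor PDGFRα, the receptor of many fibroblasts, whereas PDGF-B and PDGF-D act through PDGFRβ, and PDGF-B also binds PDGFRα. In growing vessels, endothelial cells release PDGF-B, which recruits and holds the PDGFRβ-bearing pericytes that coat the vessel wall, and in tumours both receptors are used as markers of cancer-associated fibroblasts (CAFs). PDGF-C and PDGF-D are secreted in a latent form and become active once proteases have removed their CUB domain. Atf4 encodes a transcription factor that is translated when cells are short of amino acids or otherwise stressed and binds C/EBP-ATF elements in its target genes.

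RefSeq promoter windows on GRCm38.p6 ran from 250 bases before to 50 bases after a start site. They were matched by symbol for 4 of the 6 members with 5 entries. No entry was matched for Pdgfrb or Pdgfb, so the promoters of these genes were not searched. Entries of 3 genes are shown because the results below turn on them. Pdgfra is the receptor of the CAFs with nearly equal levels, Pdgfa the ligand that differed in the melanoma cells and Pdgfc that of the macrophages. The bases before the start are printed 5′ to 3′ on the gene's own strand, for Pdgfa only the part outside its annotated exons, in lower case, with a serum response element in capitals where it was found.
Pdgfra promoter, chr5:75152001-75152250, forward strand: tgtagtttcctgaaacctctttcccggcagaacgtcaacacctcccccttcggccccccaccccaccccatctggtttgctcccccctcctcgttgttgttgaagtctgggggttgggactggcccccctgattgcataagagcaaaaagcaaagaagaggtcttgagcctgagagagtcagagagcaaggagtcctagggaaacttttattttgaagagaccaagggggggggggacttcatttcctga
Pdgfa promoter, chr5:138995038-138995194, reverse strand: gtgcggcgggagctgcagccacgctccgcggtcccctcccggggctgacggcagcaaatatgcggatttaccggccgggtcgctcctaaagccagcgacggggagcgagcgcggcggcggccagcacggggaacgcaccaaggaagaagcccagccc
Pdgfc promoter, chr3:81036166-81036415, forward strand: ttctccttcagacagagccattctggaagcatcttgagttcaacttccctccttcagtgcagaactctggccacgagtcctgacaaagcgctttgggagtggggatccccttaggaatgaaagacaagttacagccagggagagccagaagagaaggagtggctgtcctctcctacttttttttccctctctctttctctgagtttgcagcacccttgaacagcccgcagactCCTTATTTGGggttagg
The printed Pdgfa stretch has a GC content of 72.0%, against 54.4% for Pdgfra and 50.8% for Pdgfc. In the windows of 300 bases, searched on both strands, the GC box GGGCGG was found in both Pdgfa entries, within the annotated exon in the case of the printed one, and in 35.7% of all 32851 promoters. The serum response element was found in Pdgfc alone of the 5 entries and in 1.63% of all promoters. TATAAA was found in Pdgfd and in 13.6% of all. The C/EBP-ATF element, searched as TGATGNAA, was in 0 of the 5 entries and in 3.97% of all promoters, and the cAMP response element TGACGTCA was in 0 of the 5 and in 1.79%. These are matches of letters and not measured binding, and no match says only that the letters are not in this window.

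On GRCm38, in the GENCODE vM21 annotation, the members are protein-coding genes on 5 chromosomes. Pdgfra (ENSMUSG00000029231) spans chromosome 5, 75152292 to 75198215, on the forward strand, and Pdgfa (ENSMUSG00000025856) lies on the same chromosome at 138976014 to 138997370, on the reverse strand. Pdgfrb (ENSMUSG00000024620) is on chromosome 18 at 61045150 to 61085061, forward. Pdgfb (ENSMUSG00000000489) is on chromosome 15 at 79995874 to 80014977, reverse, and Atf4 (ENSMUSG00000042406, 80255184 to 80257541, forward) is on the same chromosome. Pdgfc (ENSMUSG00000028019) is on chromosome 3 at 81036416 to 81214040, forward, and Pdgfd (ENSMUSG00000032006) on chromosome 9 at 6168584 to 6378850, forward. A gene on the opposite strand overlaps Pdgfa, and how reads were assigned by strand is not given in the sources used here.

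A UMI stands for a counted RNA molecule, and the WT library held 38417113 of them in 6304 barcodes, the KO library 38290024 in 5474. After the study's filters 3861 WT and 3557 KO cells remained, at a median of 3920 and 6279 UMIs, and 1 barcode was found in both sets. Each cell was placed in a class from marker genes that include no PDGF member. This gave 1767 WT and 1801 KO melanoma-like cells, 186 and 227 CAF-like, 72 and 25 endothelial-like, 934 and 733 macrophage-like and 189 and 110 monocyte-like cells. These 5 classes had at least 20 cells in both libraries and are described here, while 557 WT and 592 KO cells stayed unassigned and 72 and 43 cells passed the gates of more than 1 class (mixed cells). All 12 CAF markers were seen in the CAF-like cells, at a sum of 51129 in WT and 38249 in KO when scaled to 1000000 UMIs of the class (CPM), against at most 821 CPM in any of the other 4 classes. The other 4 classes likewise showed all of their own markers in both libraries. Melanoma markers reached 378 to 1553 CPM in the host classes, a measure of free RNA, and by that measure free RNA accounted for at most 4.17 CPM of any PDGF gene in a host class. Erythroid markers, mainly haemoglobin genes, differed between the libraries in all 5 classes. In WT they were at 451 CPM in melanoma-like, 469 CPM in CAF-like, 1745 CPM in macrophage-like and 3030 CPM in monocyte-like cells. In the same KO classes they were at no more than 8.24 CPM. Endothelial-like cells had 32.8 CPM in WT and 9.22 CPM in KO. The part of these transcripts in the results was not tested.

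There was 1 library per genotype, so no difference between genotypes has a replicate check and no test was made. Intervals in parentheses are exact 95% intervals that cover counting error only. A gene is described as past the fold when KO and WT differed at least 2-fold, a log2 ratio of at least 1 or at most -1, with at least 20 UMIs over both libraries of the class. Ratios throughout are KO over WT.

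The targeted gene went with the labels in the host cells. In CAF-like cells Atf4 was at 258 (WT) and 44.3 CPM (KO) (log2 ratio -2.54, -3.07 to -2.04) and at 179 and 41.4 CPM in macrophage-like cells (-2.11). Endothelial-like cells held 66 Atf4 UMIs in WT and 0 in KO, a log2 ratio of at most -2.97 with 3 UMIs as the floor for the class, and monocyte-like cells held 42 and 2. In melanoma-like cells Atf4 was at 226 and 204 CPM (-0.15). The labels give males and females for both pools, but 4 Y-linked genes had 0 UMIs in each of the 5 WT classes, whereas the KO classes held between 10 and 136 of them. Xist, the female-specific transcript, reached 601 (WT) and 201 CPM (KO) in CAF-like cells. Values within cells that held Xist but no Y-linked transcript (Xist-positive cells) are therefore given for the main results below.

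Pdgfra, the receptor for PDGF-A and PDGF-C, lay almost wholly in the CAF-like cells and was nearly equal in the host genotypes. It had 136 UMIs in 186 WT and 154 UMIs in 227 KO CAF-like cells, which is 186 CPM (156 to 221) and 170 CPM (145 to 200). The log2 ratio was -0.13 (-0.47 to 0.21). These cells held 86.6% of all Pdgfra UMIs in WT (80.3 to 91.5) and 89.5% in KO (84.0 to 93.7).

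Outside the CAFs Pdgfra was at the edge of detection. Melanoma-like cells had 6 and 9 UMIs, 0.298 and 0.455 CPM, macrophage-like cells 0 and 1, monocyte-like cells 0 and 1 and endothelial-like cells 0 in both libraries, which for 72 and 25 endothelial cells allows up to 9.85 and 27.7 CPM. With every cell thinned to 2000 UMIs, 29.1% of WT (22.2 to 36.9) and 27.0% of KO CAF-like cells (20.8 to 33.9) had a Pdgfra UMI, against 0 of 550 macrophage-like cells in WT and 1 of 428 in KO. The unthinned shares were 43.5% and 41.0%. Among the 5 members with enough UMIs to be placed (Pdgfd was not), Pdgfra was the only gene at least 4-fold higher in CAF-like cells than in each other class in both libraries, which held for 2.24% of all genes.

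Pdgfrb, the receptor for PDGF-B and PDGF-D, was also highest in the CAF-like cells but differed between the genotypes there. It had 238 UMIs in WT and 93 in KO, 326 CPM (286 to 370) against 103 CPM (83.1 to 126). The log2 ratio was -1.66 (-2.03 to -1.31), with intervals that do not overlap. Pdgfrb was the only member lower by 2-fold or more in CAF-like cells, where 5.97% of the 7249 genes with at least 20 UMIs were lower past the fold. Of these genes 1.27% had a ratio as low as that of Pdgfrb, and among 1134 genes of like UMI count 0.882% did.

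Fewer KO CAFs had any Pdgfrb UMI, and those that did had fewer of them. Of the WT CAF-like cells 79 of 186 had none, and of the KO cells 164 of 227. The highest count in a cell was 9 UMIs in WT and 5 in KO, and 7 WT cells but 1 KO cell had 5 or more. At 2000 UMIs per cell, 44.3% of WT (36.4 to 52.4) and 18.5% of KO cells (13.3 to 24.8) had a Pdgfrb UMI, against 57.5% and 27.8% unthinned. In macrophage-like cells, which should lack the gene, the thinned share was 1 of 550 and 0 of 428. The median depth of the CAF-like cells was 3746 UMIs in WT and 3717 in KO.

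**Figure D1:**
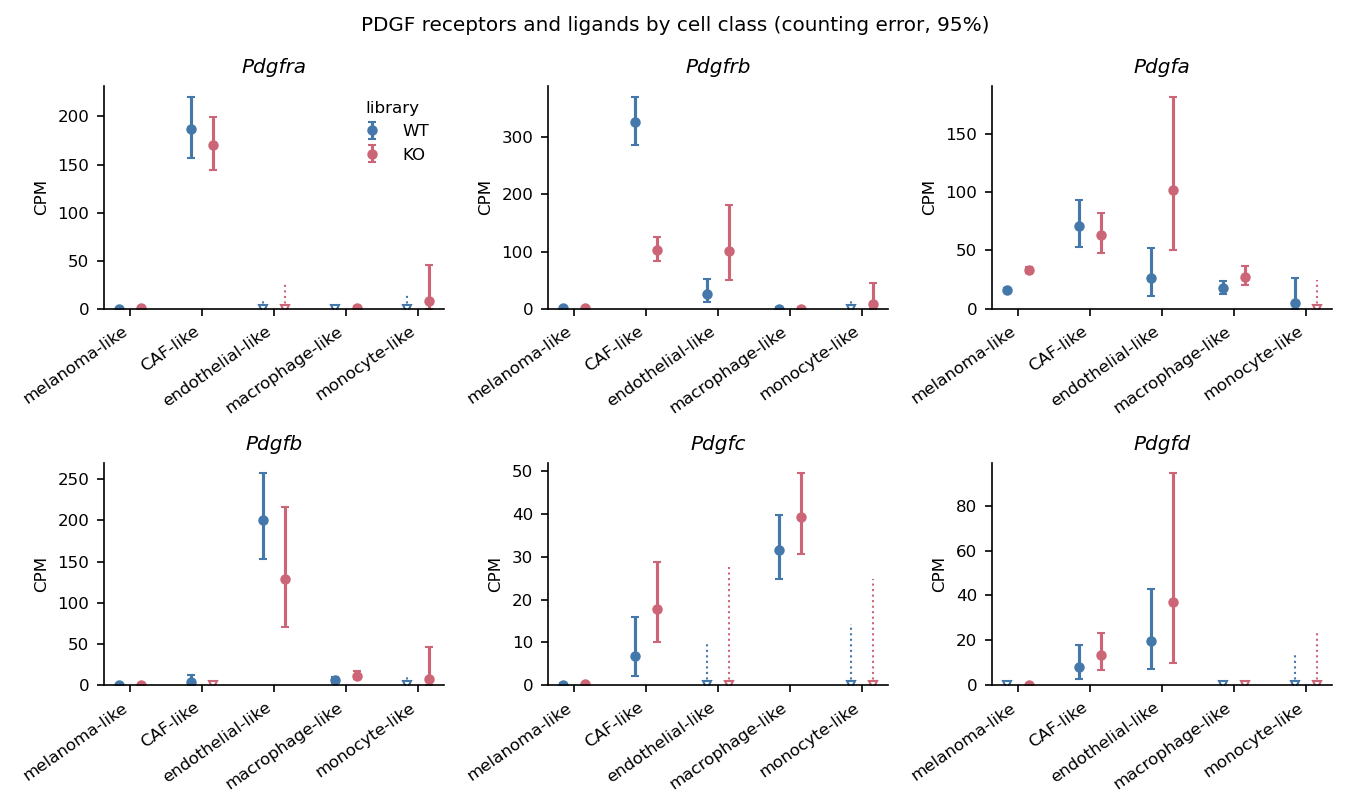
Level of each PDGF gene (CPM, linear axes that differ between panels) in 5 cell classes of the WT library (blue) and the KO library (red), with exact 95% intervals for counting error; open triangles are classes with 0 UMIs and dotted lines the upper limit 3 UMIs would give. Pdgfra and Pdgfrb stand highest in the CAF-like cells, Pdgfb in the endothelial-like and Pdgfc in the macrophage-like cells, and Pdgfrb in CAF-like cells drops from 326 CPM in WT to 103 CPM in KO.

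The receptors were thus in a different balance within the CAFs of the libraries, a comparison made between libraries because 3′ UMI counts are not scaled for how well each gene is captured. Pdgfrb made up 63.6% of the receptor UMIs of WT CAF-like cells (58.5 to 68.5) and 37.7% of those of KO cells (31.6 to 44.0). A UMI of both receptors was found in 17 of 158 WT and 11 of 189 KO cells at 2000 UMIs per cell, where 20.4 and 9.44 cells would hold both if the genes were spread independently. The receptors were therefore seen together about as often as their separate shares give, and most cells with a receptor UMI had only 1 of the receptors. At this depth a gene can be missed in a cell that expresses it, so these counts do not show separate receptor populations.

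CAF-like cells were then divided by 2 lists of markers, with at least 2 markers of a list required. Vascular-type cells, marked by pericyte-associated genes such as Rgs5, Kcnj8 and Notch3, numbered 9 in each library, and adventitial-type cells, marked by Pi16, Dpp4 and others, numbered 27 in WT and 37 in KO. The remaining 149 and 181 cells are called other CAFs, and 1 WT cell fitted both lists. The receptors had their highest levels in different subsets. Most UMIs of both lay in the other CAFs, in WT 194 of 238 for Pdgfrb and 86 of 136 for Pdgfra. In WT, Pdgfrb was at 666 CPM in vascular-type (455 to 940), 348 CPM in other (301 to 401) and 95.6 CPM in adventitial-type cells (47.7 to 171). Pdgfra ran the other way, at 41.6 CPM in vascular-type (5.04 to 150), 154 CPM in other (123 to 191) and 382 CPM in adventitial-type cells (278 to 513).

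Pdgfrb was lower past the fold in the other CAFs of the KO library. There it was at 95.2 CPM (73.9 to 121), a log2 ratio of -1.87 (-2.29 to -1.46) on 194 and 68 UMIs. In vascular-type cells it was at 365 CPM in KO (205 to 603), a log2 ratio of -0.87 (-1.86 to 0.06) on 32 and 15 UMIs in 9 cells each. In adventitial-type cells it was at 67.4 CPM, a log2 ratio of -0.50 (-1.90 to 0.87). The intervals of these subsets overlap, and whether the ratios differ between subsets was not tested. Within the CAF-like class the subset shares were alike in the libraries (vascular-type 4.84% and 3.96%, adventitial-type 14.5% and 16.3%), and the ratio with KO cells weighted to the WT mix was -1.60. Mixed cells were left out of these values, and 10 of them in WT and 2 in KO had 2 or more vascular-type markers. With the mixed cells that passed the CAF gate added to the class, the log2 ratio of Pdgfrb was -1.49 (-1.82 to -1.16). How the mixed cells would change the subset shares was not tested.

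Pdgfra was at 154 CPM in other CAFs of both libraries (log2 ratio 0.00, -0.42 to 0.42) and at 263 CPM in KO adventitial-type cells (-0.54, -1.20 to 0.11). In vascular-type cells it was at 41.6 and 122 CPM (1.55, -1.06 to 4.94), on 2 and 5 UMIs, too few to tell the libraries apart. Pdgfrb accordingly made up 20.4% of receptor UMIs in KO adventitial-type cells, nearly the WT share, 94.1% and 75.0% in vascular-type cells and 69.3% and 38.2% in other CAFs.

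The Pdgfrb difference was of unequal size by cell cycle and by Xist, and whether these sizes differ was not tested. In cells with at least 2 cell-cycle markers, 41 in WT and 36 in KO, Pdgfrb was at 442 and 76.2 CPM (log2 ratio -2.54, -3.39 to -1.77), and in the others at 271 and 111 CPM (-1.29, -1.71 to -0.87). In Xist-positive CAFs, 152 in WT and 60 in KO, it was at 303 CPM (261 to 349) and 149 CPM (101 to 213), a log2 ratio of -1.02 (-1.62 to -0.46). The 49 KO cells with a Y-linked and no Xist UMI stood at 83.9 CPM (52.6 to 127), -1.85 against the Xist-positive WT cells (-2.56 to -1.21). The KO value was thus below WT in each of these sets, and by less among Xist-positive cells. Pdgfra was at 192 and 204 CPM in the Xist-positive CAFs (0.09) and at 187 CPM in the KO cells with Y-linked UMIs. Genotype, mouse and sex cannot be told apart beyond this with 1 library per genotype.

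**Figure D2:**
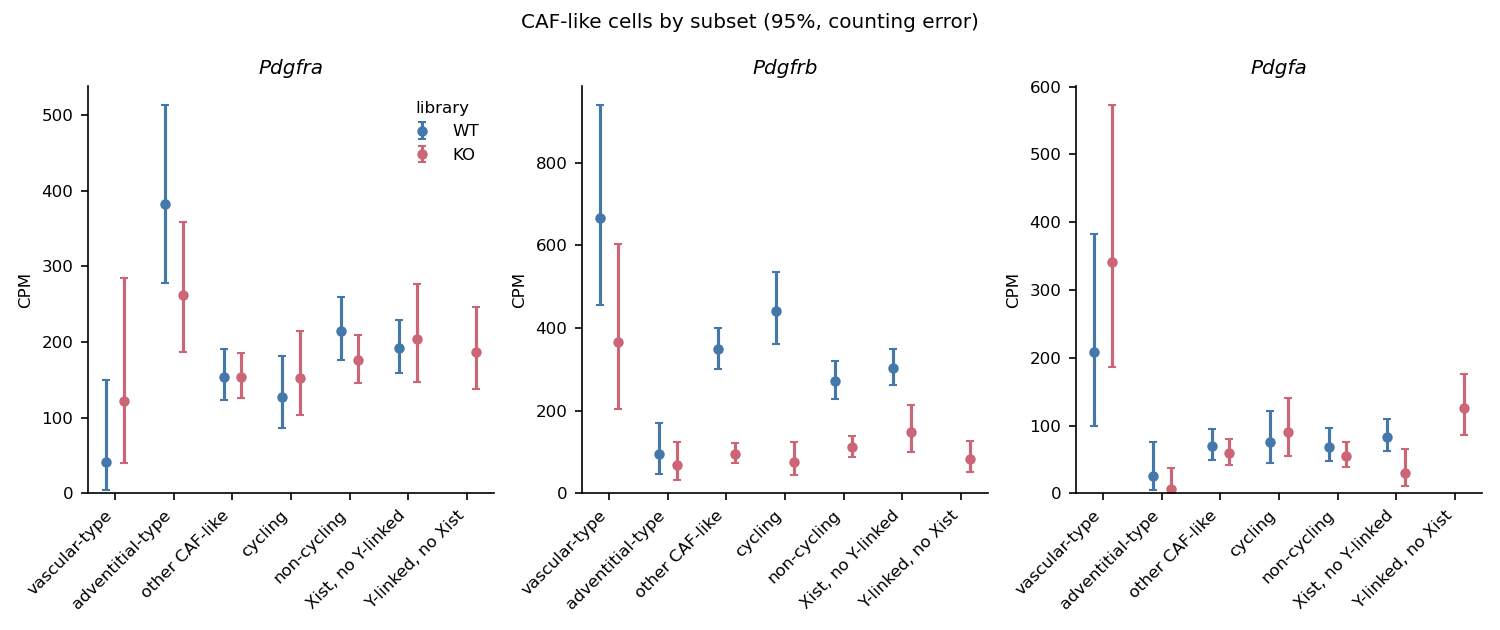
Levels of Pdgfra, Pdgfrb and Pdgfa (CPM, linear axes) in subsets of the CAF-like cells of the WT (blue) and KO (red) libraries, with exact 95% intervals for counting error; cycling and non-cycling cells, and cells split by Xist and Y-linked UMIs, are other divisions of the same cells, and no WT cell had a Y-linked UMI. Pdgfrb is highest in vascular-type and Pdgfra in adventitial-type cells, and Pdgfrb is lower in red than in blue in every subset shown for both libraries, with intervals apart in other, cycling, non-cycling and Xist-positive CAFs.

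Outside the CAF-like class, the Pdgfrb UMIs of endothelial-like cells lay in cells that carried vascular-type markers, which other cells of the class also carried. Endothelial-like cells had 8 UMIs in WT and 11 in KO, 26.3 CPM (11.3 to 51.7) and 101 CPM (50.7 to 182), a log2 ratio of 1.95 (0.50 to 3.47) on 19 UMIs, under the minimum of 20. All 19 were in 5 WT and 5 KO cells, and each of these cells had at least 2 vascular-type markers, as did 14 of 72 WT and 10 of 25 KO endothelial-like cells in all. Vascular-type markers were higher in the class as a whole (735 and 1172 CPM) than in CAF-like cells (145 and 104 CPM). They summed to 1621 and 3375 CPM in the cells with a Pdgfrb UMI and to 513 and 474 CPM in the other endothelial-like cells, and the CAF markers to 1736 and 2569 CPM against 386 and 267. The cells with a Pdgfrb UMI were also deeper, at a median of 11649 (WT) and 6937 UMIs (KO) against 2655 and 3584 in the others. Whether depth accounts for their markers was not tested. With the cells of 2 or more vascular-type markers left out, no Pdgfrb UMI remained in the class. In Xist-positive endothelial-like cells, 55 in WT and 10 in KO, the log2 ratio was 2.42 (0.46 to 4.21) on 8 and 5 UMIs. With Seurat clusters in place of the gate, the endothelial cluster had 32 and 14 UMIs and a log2 ratio of 0.54 (-0.48 to 1.48).

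Mixed cells held 54 Pdgfrb UMIs in WT and 15 in KO, 112 and 43.6 CPM (log2 ratio -1.36, -2.29 to -0.52). Of these, 21 and 2 UMIs were in 7 WT and 1 KO cells that passed both the CAF and the endothelial gate, and 6 and 1 of these cells had 2 vascular-type markers. Melanoma-like cells had 24 and 34 UMIs, 1.19 and 1.72 CPM (0.53, -0.27 to 1.35), in 24 and 32 cells. These cells had more of the vascular-type markers than the other melanoma-like cells, 104 against 32.8 CPM in WT and 77.4 against 33.5 CPM in KO, but 10 of the 24 and 14 of the 32 had any such marker. Macrophage-like cells had 1 UMI in each library. In order, Pdgfrb thus stood in WT at CAF, endothelial, melanoma, macrophage and monocyte, with 12.4-fold between the first and the next, and in KO the CAF-like and endothelial-like cells did not differ beyond their intervals.

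Pdgfa, which encodes the ligand of PDGFRα, was the most widely found ligand, and its UMIs came mostly from the melanoma cells, where it was higher in the KO library. Melanoma-like cells held 71.8% of the Pdgfa UMIs in WT and 72.2% in KO, while giving 79.8% and 78.3% of all UMIs. Their WT level was not above that of the CAF-like, endothelial-like or macrophage-like cells. Melanoma-like cells had 326 UMIs in WT and 653 in KO, 16.2 CPM (14.5 to 18.0) and 33.0 CPM (30.5 to 35.6). The log2 ratio was 1.03 (0.83 to 1.22). Pdgfa was the only member past the fold in melanoma-like cells, where 3.05% of 12253 genes were higher and 1.37% lower past it, and among 4091 genes of like UMI count 0.953% were higher past the fold. Atf4 was at 226 and 204 CPM in the same cells. The 69 WT and 10 KO melanoma-like cells that were Xist-positive had 27.2 and 31.4 CPM of Pdgfa (0.20, -2.18 to 1.94), on 22 and 3 UMIs. The same melanoma line was injected in both genotypes, so this subset cannot serve to compare hosts of 1 sex. With cells that held an Xist or Y-linked UMI left out, the log2 ratio was 1.07 (0.874 to 1.275), on 304 and 645 UMIs.

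The difference was in the number of cells with a UMI and in the count per cell. At 2000 UMIs per cell, 3.16% of WT (2.37 to 4.11) and 6.57% of KO melanoma-like cells (5.44 to 7.85) had a Pdgfa UMI, and 15.7% and 27.4% unthinned. In WT 1490 cells had 0, 244 had 1, 23 had 2, 5 had 3 and 5 had 4 or more UMIs. In KO 1308 cells had 0, 385 had 1, 77 had 2, 19 had 3 and 12 had 4 or more, with a highest count of 8 against 5.

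Pdgfa was higher in KO across depth, cell cycle and state of the melanoma-like cells. Cells below 5000 UMIs had 24.6 and 51.2 CPM, but on 9 and 18 Pdgfa UMIs (log2 ratio 1.06, -0.17 to 2.40). Among cells of 5000 to 10000 UMIs it was at 15.8 and 39.3 CPM (1.32), of 10000 to 15000 at 15.9 and 31.6 CPM (0.99) and above that at 16.3 and 29.0 CPM (0.83, 0.45 to 1.21). Cycling cells had 16 and 30.1 CPM (0.91) and the others 17.1 and 42.2 CPM (1.31). Among the 6 Seurat clusters in which these cells had at least 20 Pdgfa UMIs, the highest levels were in the cluster led by Espn, Car9 and Ero1l, the last 2 of which are induced by low oxygen, at 24.5 CPM in WT (17.2 to 34.0) and 64.2 CPM in KO (53.7 to 76.1), a log2 ratio of 1.39. The cluster led by Coq8a, Trp53inp1 and Pdcd4 had 12 and 34.2 CPM (1.51) and that led by Fam83d, Cenpf and Prc1 had 15.3 and 33.0 CPM (1.11). The smallest ratio was in the cluster led by Cdc20, a mitotic gene, at 19.4 and 25.9 CPM (0.41, -0.15 to 0.98), and the clusters led by Ccne2 and by Ung, genes of S phase, each had a log2 ratio of 0.64. Whether the ratios differ between clusters was not tested.

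**Figure D3:**
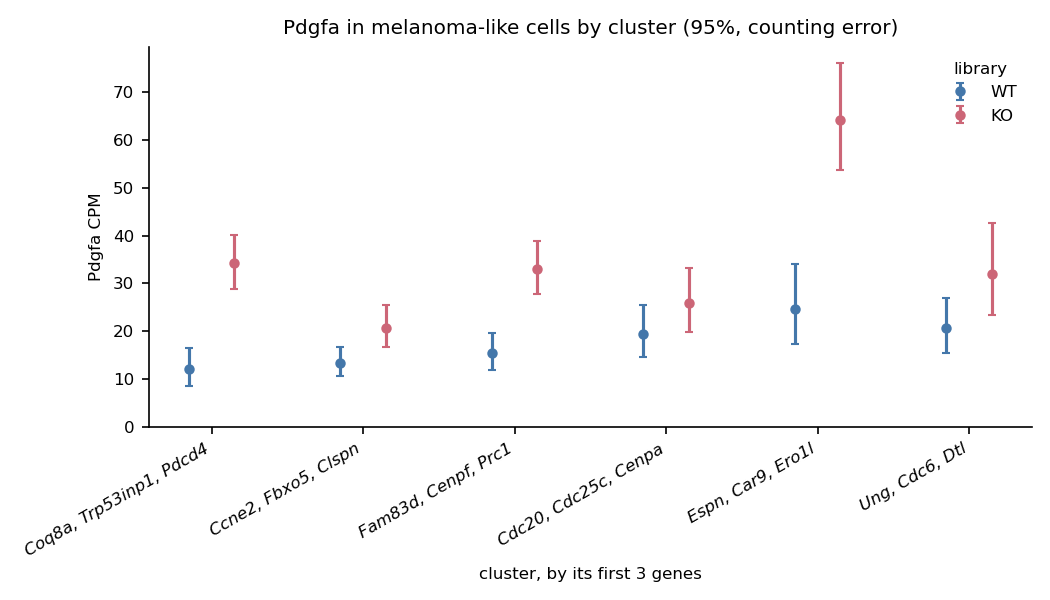
Pdgfa level (CPM, linear axis from 0) in melanoma-like cells of the WT (blue) and KO (red) libraries, by Seurat cluster named by its first 3 genes, with exact 95% intervals for counting error. The KO value is above the WT value in all 6 clusters, most in those led by Coq8a and Espn, and the intervals overlap in the clusters led by Cdc20 and by Ung.

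Unassigned cells added to the Pdgfa of the KO library. They had 7 UMIs in WT and 117 in KO, 7.82 CPM (3.15 to 16.1) and 53.7 CPM (44.4 to 64.4). Of these, 77 KO UMIs and 0 WT UMIs were in 135 KO and 28 WT cells that had 4 melanoma markers but fell short of the melanoma gate. Atf4 was at 347 and 325 CPM in those cells, against 204 CPM in KO melanoma-like cells and at most 44.3 CPM in the 4 KO host classes. Counted in all kept cells, Pdgfa had 18.0 CPM in WT (16.4 to 19.7) and 35.8 CPM in KO (33.5 to 38.2).

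In the host classes Pdgfa rested on fewer UMIs. CAF-like cells had the highest WT level of the 5 classes, 71.3 CPM (53.2 to 93.5) on 52 UMIs, against 63.1 CPM (47.8 to 81.7) on 57 UMIs in KO, a log2 ratio of -0.18 (-0.74 to 0.39). Macrophage-like cells had 17.7 and 27.6 CPM on 42 and 50 UMIs (0.64, 0.02 to 1.27), while the thinned share of cells was 4.91% in both libraries, and in Xist-positive macrophages the log2 ratio was -0.47 (-2.82 to 1.21) on 33 and 3 UMIs. Endothelial-like cells had 26.3 CPM (11.3 to 51.7) and 101 CPM (50.7 to 182) on 8 and 11 UMIs (1.95, 0.50 to 3.47), with thinned shares of 3 of 51 and 2 of 19 cells and a log2 ratio of 1.29 (-2.01 to 3.68) on 7 and 2 UMIs in Xist-positive cells. In WT the CAF-like cells stood 2.71-fold above the next class, and in KO the endothelial-like and CAF-like cells did not differ beyond their intervals.

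Within the CAFs, the level of Pdgfa was highest in the few vascular-type cells and not in the Pdgfra-rich ones. It was at 208 CPM (99.8 to 383) in WT and 341 CPM (186 to 572) in KO vascular-type cells, on 10 and 14 UMIs in 9 cells each. Other CAFs were at 70.0 and 58.8 CPM and held most of the UMIs, 39 of 52 in WT and 42 of 57 in KO. Adventitial-type cells were at 26.1 and 6.74 CPM, on 3 and 1 UMIs. The 27 WT and 29 KO CAF-like cells with a Pdgfa UMI had 474 and 233 CPM of vascular-type markers against 72.1 and 80.0 CPM in those without. A Pdgfa and a Pdgfra UMI were in the same cell in 1 of 158 WT and 3 of 189 KO cells at 2000 UMIs, where 4.08 and 4.59 would be met if the genes were spread independently. Pdgfa also differed with Xist in these cells. Xist-positive CAFs were at 83.2 and 29.9 CPM in WT and KO (log2 ratio -1.48, -2.99 to -0.26, on 52 and 6 UMIs), and KO CAFs with Y-linked UMIs at 126 CPM (86.6 to 177).

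Pdgfb, which encodes the ligand that endothelial cells use to recruit pericytes, stood highest in endothelial-like cells in both libraries. Endothelial-like cells had 61 UMIs in 72 WT cells and 14 UMIs in 25 KO cells, 200 CPM (153 to 257) and 129 CPM (70.6 to 217). The log2 ratio of -0.63 (-1.59 to 0.22) was not distinguishable from 0 at this depth, and in Xist-positive cells it was -0.57 (-2.50 to 0.87) on 51 and 4 UMIs. Pdgfb stood 33.9-fold above the next class in WT and 11.1-fold in KO, where 1.53% of all genes were at least 4-fold higher in endothelial-like cells than in every other class of both libraries. The thinned share of cells with a UMI was 29.4% (17.5 to 43.8) and 26.3% (9.15 to 51.2), against 1.09% and 2.57% in macrophage-like cells and 0 of 158 and 0 of 189 CAF-like cells. Pdgfb, the only member with at least 20 UMIs in endothelial-like cells, was not past the fold there, and 8.06% of 3140 genes were lower and 5.67% higher past it.

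Over the whole library Pdgfb was lower in KO, where endothelial-like cells were fewer and most of its UMIs lay in other classes. In all kept cells it had 113 UMIs (4.48 CPM) in WT and 41 (1.62 CPM) in KO (log2 ratio -1.46, -2.02 to -0.94). Endothelial-like cells held 54.0% of them in WT (44.4 to 63.4) and 34.1% in KO (20.1 to 50.6), while giving 1.21% and 0.429% of all UMIs. Macrophage-like cells held 12.4% in WT (6.94 to 19.9) and 51.2% in KO (35.1 to 67.1). Their own level was 5.91 CPM (3.23 to 9.91) and 11.6 CPM (7.18 to 17.7) on 14 and 21 UMIs, a log2 ratio of 0.97 (-0.07 to 2.06). Xist-positive macrophages had 12 Pdgfb UMIs in WT and 0 in KO, which allows up to 12.9 CPM against 6.46 CPM in WT. No member was past the fold in macrophage-like cells, where 2.45% of 8989 genes were lower and 2.9% higher past it. The numbers of endothelial-like cells, 72 and 25, rest on 1 library each.

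Other Pdgfb UMIs were few. Melanoma-like cells had 16 in WT and 2 in KO (log2 ratio -2.97, -6.14 to -0.89), under the minimum of 20. Of the 16, 9 were in the 69 WT melanoma-like cells with an Xist UMI, and endothelial markers were at 324 CPM in the 13 WT cells with Pdgfb against 121 CPM in those without. CAF-like cells had 3 and 0 UMIs.

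Pdgfc, which encodes a ligand of PDGFRα that proteases activate, was mainly a macrophage transcript. Macrophage-like cells had 75 UMIs in WT and 71 in KO, 31.7 CPM (24.9 to 39.7) and 39.2 CPM (30.6 to 49.5), a log2 ratio of 0.31 (-0.18 to 0.80). They held 87.2% of all Pdgfc UMIs in WT (78.3 to 93.4) and 74.0% in KO (64.0 to 82.4). At 2000 UMIs per cell 6.91% and 8.18% of them had a UMI, against 0 of 1678 and 0 of 1720 melanoma-like cells. Among the macrophage clusters, the one led by Cd209f, with Lyve1 and Cd163, genes of tissue-resident macrophages, had 44.3 CPM in WT (25.3 to 72.0) and 65.9 CPM in KO (46.4 to 90.8), and the largest cluster, led by Atp6v0d2 and Acp5, had 26.9 and 31.6 CPM. The third, led by Hist1h2ap and Hist1h1b, histone genes of dividing cells, had 55.3 CPM in WT (33.8 to 85.4) and 30.7 CPM in KO (9.96 to 71.6), on 20 and 5 UMIs, the highest WT level and the only one of the 3 macrophage clusters with the lower value in KO (-0.85, -2.62 to 0.61). In Xist-positive macrophages the order of the genotypes was the other way, at 35 and 17.1 CPM in 673 and 79 cells (-1.03, -2.95 to 0.40), but the KO value rested on 4 UMIs.

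In CAF-like cells Pdgfc had 5 UMIs in WT and 16 in KO, 6.86 CPM (2.23 to 16) and 17.7 CPM (10.1 to 28.8). With 21 UMIs in all, its log2 ratio of 1.37 (-0.15 to 3.17) was past the fold but was not distinguishable from 0 at this depth, and 5.13% of the genes of the class were higher past the fold. No cell had more than 1 of these UMIs. Thinned to 2000 UMIs, 2 of 158 and 3 of 189 cells had one.

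Pdgfd, which encodes the other protease-activated ligand, that of PDGFRβ, was the rarest member, with 12 UMIs in WT and 21 in KO. CAF-like cells had 6 and 12, 8.23 CPM (3.02 to 17.9) and 13.3 CPM (6.86 to 23.2), a log2 ratio of 0.69 (-0.83 to 2.39). Endothelial-like cells had 6 and 4, 19.7 CPM (7.23 to 42.9) and 36.9 CPM (10.1 to 94.5). Macrophage-like and monocyte-like cells had 0 in both libraries, which allows up to 1.27 and 1.66 CPM in the macrophages. Of the CAF UMIs 3 in WT and 6 in KO were in adventitial-type cells. These counts allow no more than naming the classes.

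**Figure D4:**
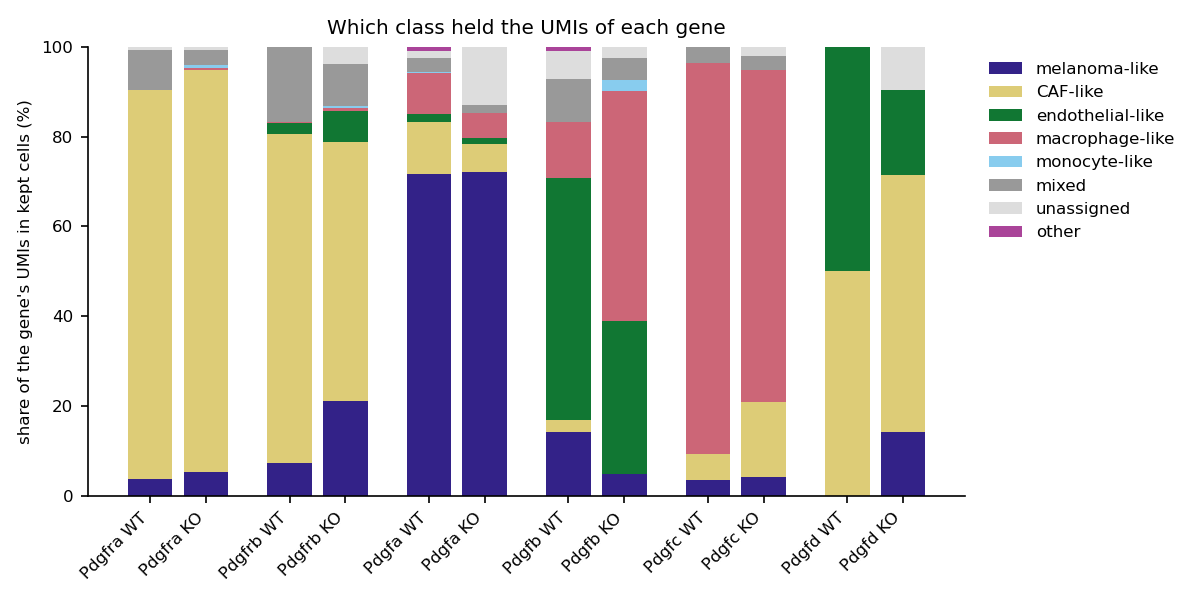
Share of each member's UMIs (percent of its UMIs in all kept cells) held by each class, for the WT and KO libraries in neighbouring bars that each sum to 100. CAF-like cells hold most of the receptor UMIs, melanoma-like cells 71.8% and 72.2% of Pdgfa and macrophage-like cells most of Pdgfc, while the endothelial share of Pdgfb is 54.0% in WT and 34.1% in KO. Over all genes, melanoma-like cells gave 79.8% (WT) and 78.3% (KO) of the UMIs.

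Read as senders and receivers, the transcripts of the PDGFRα ligands lay mostly in melanoma-like cells (Pdgfa) and macrophage-like cells (Pdgfc). Melanoma-like cells held 71.8% of the Pdgfa UMIs in WT and 72.2% in KO, below their 79.8% and 78.3% of all UMIs. Pdgfb had its highest CPM in endothelial-like cells, with most of its KO UMIs elsewhere, and both receptors were highest in CAF-like cells. Between the libraries Pdgfrb was lower in KO CAF-like cells and Pdgfa higher in KO melanoma-like cells, while the interval of Pdgfra in CAF-like cells ran from -0.47 to 0.21 and that of Pdgfc in macrophage-like cells from -0.18 to 0.80. Past the 4-fold rule for a leading class, which Pdgfra met in CAF-like and Pdgfb in endothelial-like cells, none of the members was a gene of melanoma-like, macrophage-like or monocyte-like cells, which 1.96%, 0.506% and 0.29% of all genes were. Monocyte-like cells held at most 1 UMI of any member in each library, and none could be placed against the fold there, where 5.51% of 2361 genes were lower and 4.74% higher past it.

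**Figure D5:**
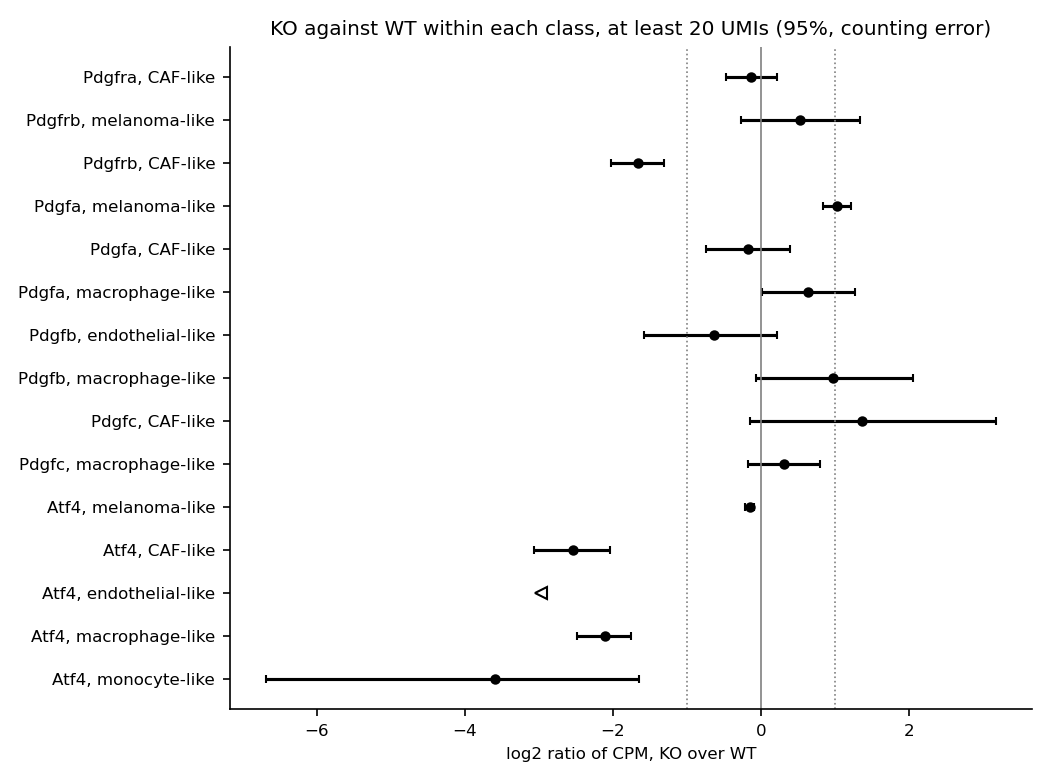
Log2 ratio of CPM, KO over WT, for each member and class with at least 20 UMIs in both libraries together, and for Atf4, with exact 95% intervals for counting error; dotted lines mark the 2-fold limits, and the open triangle is an upper bound because KO endothelial-like cells had 0 Atf4 UMIs. Pdgfrb in CAF-like cells (-1.66) lies below the lower limit with its whole interval, Pdgfa in melanoma-like cells lies at 1.03, and the interval of Pdgfra in CAF-like cells spans 0.

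The wider pathway was read from a list of 56 genes, of which 55 were in the files, in 5 groups by role. In CAF-like cells 51 had at least 20 UMIs, and 8 were lower and 1 was higher in KO past the fold, where 5.97% of all genes of the class were lower and 5.13% higher. The median log2 ratio of the list was -0.22, against -0.03 over all genes. The list was chosen with earlier results of these data known, so that its counts are a description.

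Among co-receptors and binding proteins 3 of 8 genes were lower and 0 higher. Nrp1, a co-receptor that also binds VEGF, was at 108 and 50.9 CPM in WT and KO (log2 ratio -1.09, -1.65 to -0.55). Cspg4, the pericyte proteoglycan NG2, was at 34.3 and 15.5 CPM on 25 and 14 UMIs (-1.15), and Pdgfrl, a receptor-like protein without a kinase, at 34.3 and 11.1 CPM on 25 and 10 UMIs (-1.63). Among adaptors and signal transducers 1 of 17 was lower, the adaptor Nck1, at 43.9 and 14.4 CPM on 32 and 13 UMIs (-1.61). Stat3 (0.04) and Ptpn11 (0.04), which act downstream of the receptors, had log2 ratios near 0.

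Feedback genes and early targets of ERK signalling held the largest share, with 4 of 9 lower and 0 higher. Spry1, a feedback inhibitor of receptor tyrosine kinases, was at 67.2 and 11.1 CPM on 49 and 10 UMIs (log2 ratio -2.60, -3.75 to -1.60), and Myc at 78.1 and 23.2 CPM on 57 and 21 UMIs (-1.75, -2.55 to -1.01). Fos, an immediate-early transcription factor, was at 816 and 331 CPM (-1.30, -1.51 to -1.10), and Dusp6, an ERK phosphatase, at 20.6 and 9.96 CPM on 15 and 9 UMIs (-1.05, -2.42 to 0.24). The other 5 were between -0.75 (Egr1) and 0.55 (Hbegf), with Ccl2 at 0.00. The group was thus not uniform.

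Of the 11 negative regulators tested, Cav1, the caveolae protein that binds and dampens growth factor receptors, was higher, at 207 and 479 CPM (log2 ratio 1.21, 0.94 to 1.49), and 0 were lower. None of 6 genes of ligand processing was past the fold. In this group Bmp1, a procollagen protease, had the most UMIs, at 314 and 374 CPM (0.25, 0.01 to 0.50), and Plat, the plasminogen activator that activates PDGF-C, was at 325 and 174 CPM (-0.90, -1.20 to -0.61).

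The list was also counted in the other classes. In melanoma-like cells 2 of 49 genes were lower, Nrp1 at 19.1 and 9.25 CPM (-1.05) and Myc at 67.9 and 31.7 CPM (-1.10), and 0 higher, where 1.37% of all genes were lower and 3.05% higher. In macrophage-like cells 0 of 42 were past the fold in either direction, against 2.45% and 2.9% of all genes. In endothelial-like cells 3 of 27 were higher (Furin, Thbs1 and Spry4) and 0 lower, against 5.67% and 8.06% of all genes. In monocyte-like cells 2 of 18 were lower and 1 was higher, against 5.51% and 4.74%. These classes had 25 and 110 KO cells.

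The genes whose levels were most like those of each member were ranked by the Pearson correlation of log2(CPM + 10) over the 10 sums of 5 classes and 2 libraries, which share their libraries and are no independent samples. Among them were Sod3, Mmp3 and Thbs2 for Pdgfra (r of 0.998 to 0.995), Vkorc1l1 and Ctgf for Pdgfrb (0.986 and 0.978), Tulp4, Gmppb and Alg11 for Pdgfa (0.968 to 0.959), Jup, Sox17 and Arhgef5 for Pdgfb (0.987 to 0.975), Mmp27, Pde1b and Ccl8 for Pdgfc (0.989 to 0.978), and Pdlim1, Apln and Cyb561 for Pdgfd (0.988 to 0.981). Sod3, Mmp3 and Thbs2 are extracellular proteins of fibroblasts, Ctgf a matrix-associated growth factor, Sox17 and Apln are known from endothelial cells, and Ccl8 is a chemokine. Ccl8 was also among the 10 leading genes of the Cd209f-led macrophage cluster, in which Pdgfc had its highest KO level.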

How the data were processed

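Small B16F10 tumours were dissociated and run on the 10x Genomics 3′ platform, with 1 WT and 1 KO library. The authors deposited raw UMI counts per gene and cell, made with Cell Ranger 3.1.0 on GRCm38 with an Ensembl annotation, and the submitters' notes also name Seurat 3.2.1. The labels and the methods name different kit versions, so depth is given from the counts.

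The study's limits of 200 to 5000 genes and 7.5% mitochondrial UMIs per cell were applied, which left a few cells more per library than the study's own count. A cell joined a class when it had at least 2 to 4 distinct markers, by class, and a marker score above a limit. Gate limits were set after the marker scores, but not the member values, had been seen. CPM are the UMI sums of a class in a library, scaled by the total of that class. Sums have exact Poisson, shares exact Clopper-Pearson and ratios exact conditional binomial intervals, and no p-value was computed. Shares of cells were taken at 2000 UMIs, without shallower cells. Doublets were not removed for the reported values. Scrublet in scanpy 1.11.5, which called 107 WT and 47 KO cells (2.77% and 1.32%), served as an alternative.

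The members, gene lists and comparisons were chosen with earlier results of these data known. Named were all members and Atf4, in CAF-like cells the pathway genes past the fold or else the one with the most UMIs in its group, and the 3 genes most like each member among those with at least 50 UMIs. Plat, Egr1, Hbegf, Ccl2, Stat3, Ptpn11 and the genes past the fold in other classes were named after their values were seen, and some results that these rules would name are not reported here. Seurat 5.3.0 under R 4.3.3 gave 16 clusters, and edgeR 4.0.16 only TMM factors. Python 3.11.15 with numpy 2.4.6, scipy 1.17.1 and pandas 2.3.3 was used, and the interval steps were tested on simulated data.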

Additional observations from a re-analysis of the deposited data

Results flagged for a closer look

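Pdgfrb had a log2 KO over WT ratio of -1.66 in CAF-like cells and of 1.95 in endothelial-like cells, opposite in sign. The difference between the classes was not tested, and the endothelial value rests on 19 UMIs in 10 cells. All of those cells carried vascular-type markers, but 44 WT and 11 KO endothelial-like cells without a Pdgfrb UMI also had at least 1. Pdgfa was also higher in KO in data outside the class comparisons. In the 2443 WT and 1917 KO barcodes that the filters left out, its log2 ratio was 0.87 (0.63 to 1.11, on 224 and 405 UMIs), at 17.0 and 31.1 CPM. In the kept cells with no class it was 2.78 (1.69 to 4.13, on 7 and 117 UMIs).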

How the results depend on the processing

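No paired analysis was possible because there was a single library of either genotype, and for the same reason no replicate could be left out. Of 171 values computed under alternatives, 143 differed from the reported value by less than its counting interval or, for counts of genes, by less than 1.5 times, and 0 of the called values changed sign. The log2 ratio of Pdgfrb in CAF-like cells was negative in 12 of 12 alternatives (-1.67 to -1.02) and that of Pdgfa in melanoma-like cells positive in 11 of 11 (0.92 to 1.18). Pdgfb in endothelial-like cells ranged from -0.88 to -0.52, Pdgfd in CAF-like cells from 0.05 to 0.90 and Pdgfrb in endothelial-like cells from 0.54 to 2.42. Pdgfra in CAF-like cells, whose interval spans 0, ranged from -0.23 to 0.09 and was negative in 9 of 12 alternatives, and Pdgfc in macrophage-like cells was positive in 10 of 11. In Xist-positive cells Pdgfrb was at -1.02 in CAF-like cells and Pdgfc at -1.03 in macrophage-like cells. Alternatives chosen after seeing the data were those for Pdgfrb in endothelial-like cells and those that added mixed cells to the CAFs, added unassigned cells with 4 melanoma markers to the melanoma-like cells, or left out cells with sex-linked or vascular-type transcripts.

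The share of a member's UMIs held by its class depended on how classes were drawn. With the looser gate, which moves more cells to the mixed set, CAF-like cells held 43.9% (WT) and 75.0% (KO) of Pdgfra and 26.5% and 41.0% of Pdgfrb, melanoma-like cells 79.4% of KO Pdgfa and endothelial-like cells 36.3% of WT Pdgfb. With Seurat clusters the shares were 91.7% of WT Pdgfra, 81.5% of WT Pdgfrb, 63.0% and 57.6% of WT and KO Pdgfa and 67.3% of WT Pdgfb. The stricter gate gave 79.7% of WT Pdgfrb and 64.5% and 49.4% of WT and KO Pdgfa. A mitochondrial limit of 15% gave 68.0% of WT Pdgfrb and 78.2% of WT Pdgfa, and removing Scrublet doublets 92.5% of WT Pdgfra. With at least 50 UMIs, 4 of 36 pathway genes were lower past the fold in CAF-like cells, against 3.79% of all genes. In endothelial-like cells 1 of 13 was higher (2.68% of all genes), and in monocyte-like cells 0 of 8 were lower or higher (2.29% and 2.59%). With no minimum beyond 1 UMI in each library, 3 of 46 were lower and 8 higher in endothelial-like cells, against 10.3% and 18.1% of all genes. In macrophage-like cells 2 of 49 were lower and 2 higher (5.61% and 7.19%), and in monocyte-like cells 6 of 38 were higher (14%). Fewer or more genes tested accounts for these counts by construction, and the cause of the other moves was not tested. Depth limits what can be said of the members in the 25 KO endothelial-like cells, in the monocyte-like cells and of Pdgfd.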
